A study of Mus musculus with 4 samples.

Results

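The genes described here serve cholesterol synthesis and its control by SREBP2, and were followed over the 4 arrays of a study of p63 and etoposide in mouse embryonic fibroblasts. They were taken from the probe sets annotated with exactly 1 gene symbol that was Hmgcs1, Sqle, Hsd17b7, Idi1, Insig1, Lss, Dhcr7 or Cyp51. All 8 genes were found, on 9 probe sets, among 19938 genes named in this way on 35512 probe sets. The fibroblasts lacked BAX and BAK, the effectors of mitochondrial outer membrane permeabilisation, in all 4 conditions. They came from an E13.5 embryo of C57BL/6 background and were transformed with SV40, a virus with a large T antigen that disables p53 and RB. One line carried a retrovirus for GFP, the control, and the other a retrovirus for p63, a p53 family transcription factor that stratified epithelia need. Etoposide, which traps topoisomerase II on cleaved DNA, was given to each line for 6 h at 10 µg/mL per the treatment protocol, beside a mock treatment. The sample characteristics give the same number per microlitre. The isoform and species of the p63 construct, and whether each line was a pool or a clone, were not given.

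Cholesterol is made from acetyl-CoA by way of mevalonate, isoprenoid units, squalene and lanosterol. The transcription factor SREBP2 activates nearly every enzyme of this route. When sterols are plentiful, Insig proteins hold the SREBP escort SCAP in the endoplasmic reticulum, and when sterols are scarce the complex moves to the Golgi, where SREBP2 is cut and released. SREBP2 binds sterol regulatory elements and some E-boxes in promoters, commonly next to sites for NF-Y and Sp1.

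Of the 8 genes, 7 had a promoter in the RefSeq table of promoters (GRCm38.p6), which runs from 250 bases before to 50 after each annotated start. Those of Hmgcs1, Hsd17b7, Insig1 and Idi1 are shown, a choice made with the values below known. Those of Lss, Cyp51 and Dhcr7 are not shown, though the values of Dhcr7 also differed from those of the other genes. The sequences are given 5′ to 3′ on the strand of the gene and stop at the outer end of the annotated gene. Capitals mark TCACNNCAC (a form of the sterol regulatory element), TCACGTG (an E-box) and CCAAT (the NF-Y box), each searched on both strands, so that CCAAT on the other strand appears as ATTGG. The letters were chosen with the sequences in view.

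Hmgcs1 (chr13:119690101-119690350, plus strand): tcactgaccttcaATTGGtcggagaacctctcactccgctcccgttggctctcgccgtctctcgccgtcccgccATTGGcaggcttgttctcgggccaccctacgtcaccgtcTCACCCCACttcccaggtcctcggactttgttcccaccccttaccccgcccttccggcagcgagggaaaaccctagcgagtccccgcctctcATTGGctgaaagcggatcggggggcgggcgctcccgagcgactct
Hsd17b7 (chr1:169969243-169969455, minus strand): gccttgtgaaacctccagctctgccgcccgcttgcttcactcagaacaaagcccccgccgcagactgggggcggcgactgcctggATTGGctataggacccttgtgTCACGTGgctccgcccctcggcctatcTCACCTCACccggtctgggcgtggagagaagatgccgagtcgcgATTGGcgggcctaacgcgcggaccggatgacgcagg
Insig1 (chr5:28071162-28071411, plus strand): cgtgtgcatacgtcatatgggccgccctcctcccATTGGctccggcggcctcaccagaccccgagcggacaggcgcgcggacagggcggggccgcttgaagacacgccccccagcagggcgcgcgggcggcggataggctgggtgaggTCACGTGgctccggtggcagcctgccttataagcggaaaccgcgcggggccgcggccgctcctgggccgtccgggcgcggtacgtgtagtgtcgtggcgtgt
Idi1 (chr13:8885356-8885605, plus strand): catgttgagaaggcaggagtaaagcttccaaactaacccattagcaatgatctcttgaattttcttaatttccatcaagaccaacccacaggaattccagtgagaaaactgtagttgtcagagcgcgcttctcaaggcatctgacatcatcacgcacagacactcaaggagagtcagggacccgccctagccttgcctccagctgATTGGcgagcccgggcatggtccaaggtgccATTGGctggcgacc

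Hmgcs1 held the element as TCACCCCAC at position -137 from its start, and Hsd17b7 held it as TCACCTCAC at -117. Dhcr7 held it in 1 of its windows, so that 3 of 7 genes had TCACNNCAC, against 4.37% of all 27025 genes with a promoter. The E-box TCACGTG lay at -144 in Hsd17b7 and at -102 in Insig1, and 4.29% of all genes had it. In these promoters the E-box was part of a run of 14 bases that both shared, GTCACGTGGCTCCG, which 5 of 32851 windows held. The run was picked as the longest that these promoters share, and their own windows are among the 5. A low count follows in part from that choice. CCAAT and the Sp1 box GGGCGG were each present in 7 of 7 genes, against 41.1% and 38.2% of all genes. Of 11 other sterol enzymes with a promoter, 10 had CCAAT, 9 had GGGCGG, 1 had TCACNNCAC and 1 had TCACGTG. Among 13 genes of fatty acid synthesis with a promoter, these numbers were 8, 7, 0 and 1. In the sequences shown no match of one motif overlapped a match of another. Such matches describe letters and do not show binding.

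Each condition had 1 array, so differences are given by size with no test and no error. Values are RMA signals on the log2 scale, where a difference of 1 is 2-fold. Genes were kept if they reached 5.87, the 50th percentile over named probe sets, on at least 1 array, which left 10698. All 8 genes were kept and read above 5.87 on every array. The array of mock-treated p63 cells had the lowest SD over all probe sets, 2.28 against 2.37 to 2.39, and the lowest median over the genes kept, 7.48 against 7.60 to 7.69. Trp63 read 4.87 and 5.59 on the GFP arrays and 8.75 and 9.29 on the p63 arrays, mock first, which matches the labels. Of 9 fibroblast markers with a named probe set, 7 were kept, with Pdgfra and Thy1 below the filter on every array. None of the endothelial or steroidogenic markers was kept, and of the simple epithelial, haematopoietic, hepatocyte and adipocyte markers 1 each was, namely Krt8, Cd68, Apoa1 and Pparg. In bulk RNA, fewer cells of a type and less RNA per cell cannot be told apart.

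The genes differed in their order of arrays, and genes far apart in the pathway, such as Hmgcs1 and Cyp51, had the same order. Hmgcs1, HMG-CoA synthase at the entry of the mevalonate route, read 8.99 on the GFP mock array, 8.32 on the GFP etoposide array, 9.83 on the p63 mock array and 9.45 on the p63 etoposide array. Both p63 arrays lay above both GFP arrays, and the etoposide array was the lower one in each line. Idi1, the isomerase that balances the isoprenoid units, read 9.05, 9.49, 9.67 and 10.09 in the same order. Here too the p63 arrays were the higher pair, but the etoposide array was the higher one in each line. A second Idi1 probe set, annotated to the same transcripts, read 8.68, 9.11, 9.24 and 9.74, which is the same order of arrays.

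Sqle, squalene epoxidase and a rate-limiting enzyme of the sterol branch, read 9.05, 8.02, 9.78 and 9.11. Its lowest value by far was in etoposide-treated GFP cells, and its order of arrays was that of Hmgcs1. Lss, which closes the sterol rings to make lanosterol, read 7.59, 7.21, 7.75 and 7.53, and Lss was thus highest in mock-treated p63 cells and lowest in etoposide-treated GFP cells. Cyp51, the cytochrome P450 that demethylates lanosterol, read 7.95, 7.64, 8.45 and 8.19, with both p63 arrays above both GFP arrays.

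Hsd17b7, a reductase of keto-sterol intermediates, read 7.81, 7.81, 8.16 and 9.09. Its GFP arrays were within 0.01 of each other, and etoposide-treated p63 cells stood above the other arrays. Insig1, the sterol-responsive brake on SREBP processing, had a like pattern at 8.10, 8.10, 8.25 and 8.92. Dhcr7, which makes cholesterol in the last step of one branch, read 7.05, 6.87, 6.50 and 7.10. It was the only gene of the 8 with its lowest value in mock-treated p63 cells. Over the 8 genes, the highest array was mock-treated p63 for 4 and etoposide-treated p63 for 4, and the lowest was etoposide-treated GFP for 5. These ranks were not counted over all genes kept, and the arrays differed in median and SD. They therefore do not set the 8 genes apart from other genes.

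**Figure D1:**
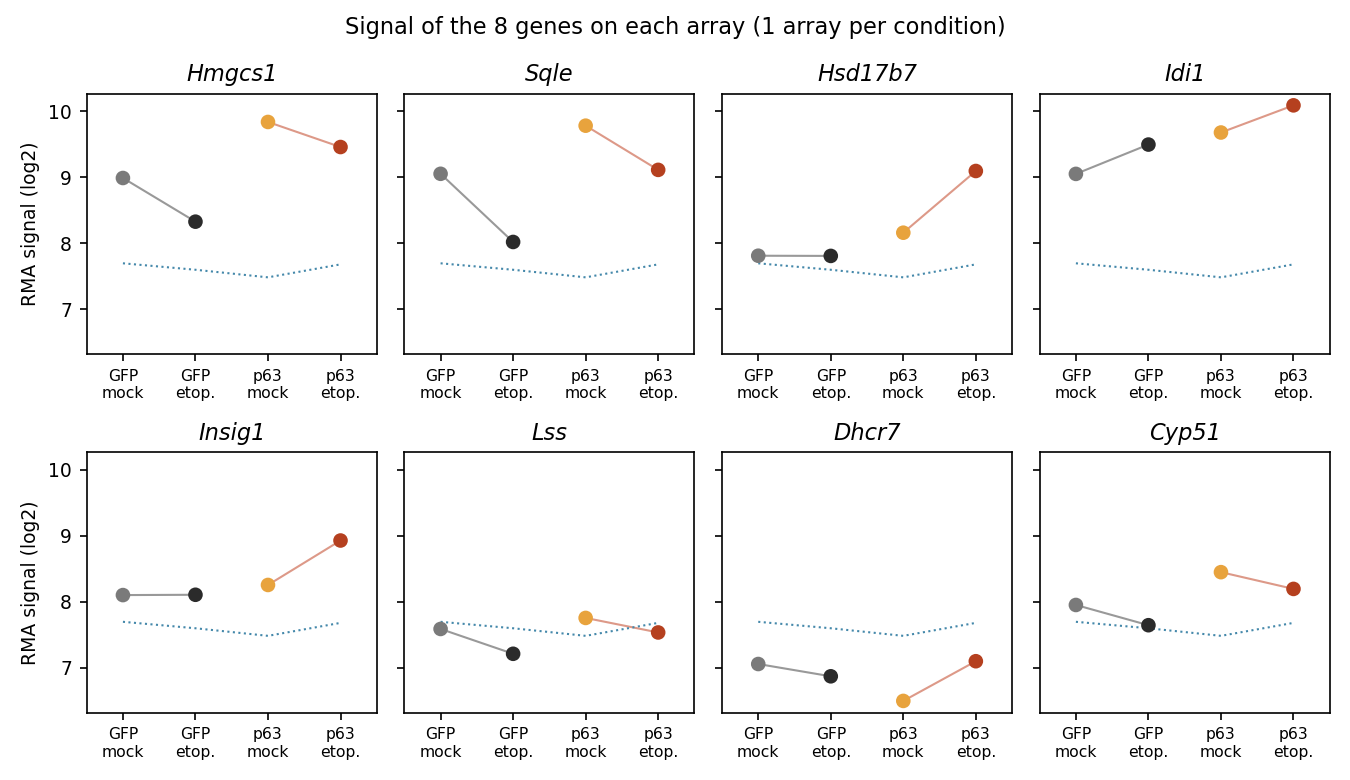
RMA signal (log2) of each of the 8 genes on the 4 arrays, with lines joining mock and etoposide within a line and a dotted line at the median of the genes kept. Hmgcs1, Sqle, Lss and Cyp51 slope down with etoposide in both lines, while Hsd17b7 and Insig1 are flat in GFP cells and slope up in p63 cells.

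The comparison of p63 with GFP cells asks what p63 alters in these fibroblasts with and without DNA damage. After etoposide all 8 genes read higher in p63 cells, and 3 of them by at least 1. Hsd17b7 was higher by 1.29 or 2.44-fold, Hmgcs1 by 1.13 or 2.19-fold and Sqle by 1.09 or 2.13-fold. Of all genes kept, 1.38% were higher by at least 1 in this comparison, and 54.4% were above 0. Insig1 followed at 0.82, Idi1 at 0.59, Cyp51 at 0.55, Lss at 0.32 and Dhcr7 at 0.23. The median over the 8 genes was 0.71, beside 0.02 over all genes kept. At a threshold of 1.5-fold, 5 of 8 genes were called, against a background of 4.91%, and Idi1 was no longer among them with arrays centred (0.51) or after cyclic loess (0.58). This comparison does not use the array of mock-treated p63 cells, and the same 3 genes stayed above 1 under every scaling tried, with Sqle lowest at 1.01.

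In mock-treated cells 7 of 8 genes read higher with p63, against 36.1% of all genes kept, and none reached 1, which 2.42% of all genes did. Hmgcs1 was higher by 0.85, Sqle by 0.73, Idi1 by 0.63, Cyp51 by 0.50, Hsd17b7 by 0.35, Lss by 0.17 and Insig1 by 0.15. Dhcr7 stood at -0.56. The median was 0.42, beside -0.14 over all genes kept. Centring the arrays moved the median of all genes to 0.07 and that of the 8 genes to 0.64, and Hmgcs1 then reached 1.06. After cyclic loess Hmgcs1 was at 1.05.

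The 2 comparisons share no array, though they use the same cell lines, so p63 cannot be told apart from another difference between the lines. Hmgcs1, Sqle and Idi1 were higher by at least 1.5-fold under both treatments, 3 of 8 genes against 2.77% of all genes kept. Idi1 missed this under etoposide in both scalings, and its second probe set missed it in mock-treated cells (0.56). All 6 markers of basal epidermis were higher by at least 1 in p63 cells under both treatments. Of all genes kept, 2.42% were so under mock and 1.38% under etoposide. The sum of the 6 markers' log2 signals was 34.6 and 40.3 on the GFP arrays, against 58.0 and 58.2 on the p63 arrays. Krt5, a keratin of basal epidermis, read 5.21, 5.24, 9.89 and 9.72. Krt5 and Krt14 were below the filter on both GFP arrays, so they were kept through the p63 arrays alone. Itgb4 and Dsp were below it on the GFP mock array. The part of these markers' expression in the sterol gene values was not tested.

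**Figure D2:**
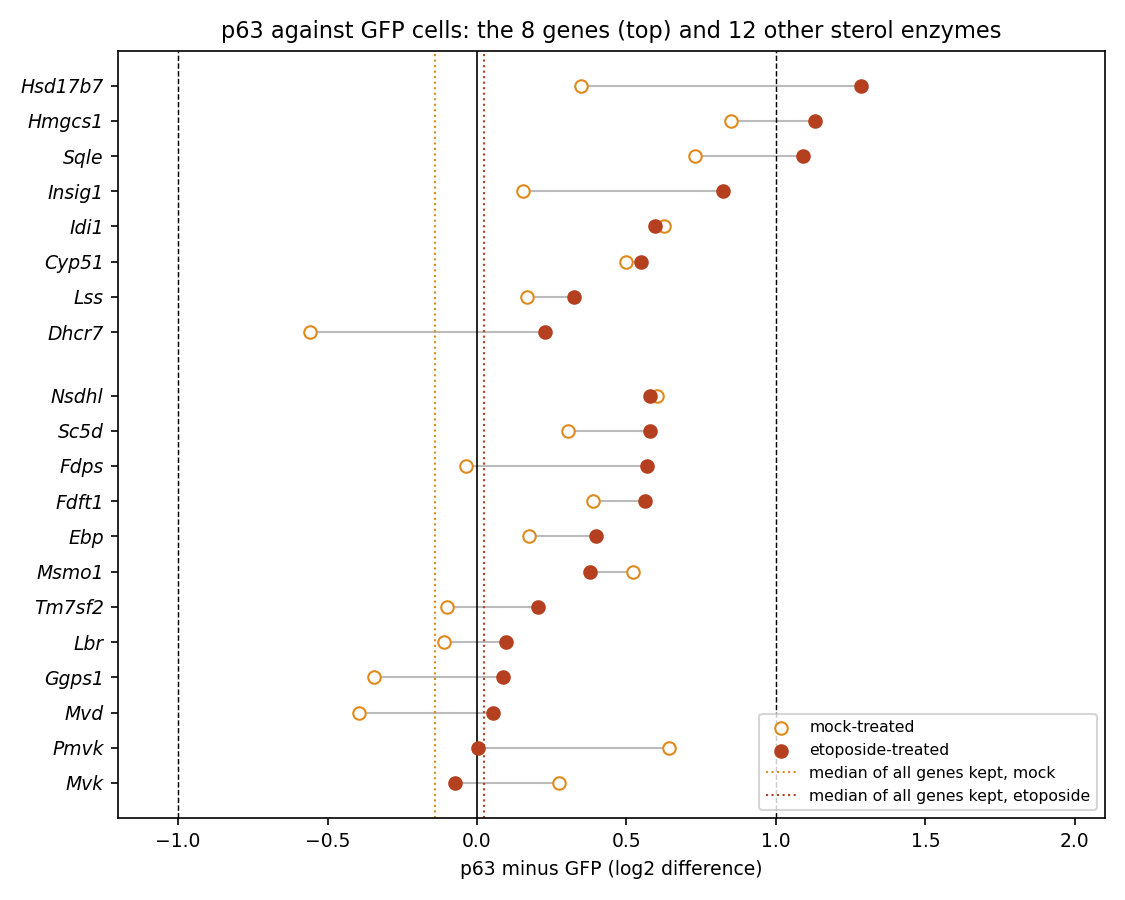
Log2 difference between p63 and GFP cells for the 8 genes (top) and 12 other sterol enzymes, with mock-treated cells as open and etoposide-treated cells as filled points; dashed lines mark a size of 1. Hsd17b7, Hmgcs1 and Sqle lie beyond 1 after etoposide, and of the 20 genes Mvk alone lies below 0 there.

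The etoposide comparison addresses the response to DNA damage where BAX and BAK are missing. In GFP cells 6 of 8 genes read lower after etoposide, against 58.8% of all genes kept, and Sqle was lower by at least 1, as were 2.12% of all genes. Sqle stood at -1.03, which is 2.05-fold lower, and Hmgcs1 at -0.66. Lss stood at -0.38, Cyp51 at -0.31 and Dhcr7 at -0.19. Hsd17b7 and Insig1 stood at -0.003 and 0.005, and Idi1 at 0.44. The median was -0.25, beside -0.08 over all genes kept. It was -0.15 with arrays centred, where that of all genes was 0.015, -0.16 after cyclic loess and -0.15 with the stricter filter, which left 6 genes. Sqle no longer reached 1 with arrays centred (-0.93) or after cyclic loess (-0.90).

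In p63 cells 4 genes read higher and 4 lower after etoposide, and none differed by 1. Of all 10698 genes kept, 6367 read higher and 4327 lower in this comparison. There 6.28% of all genes were higher and 1.33% lower by at least 1. The genes below 0 were Sqle at -0.67, Hmgcs1 at -0.38, Cyp51 at -0.25 and Lss at -0.22, and the same 4 genes were below 0 in GFP cells. Hsd17b7 stood at 0.93, Insig1 at 0.67, Dhcr7 at 0.60 and Idi1 at 0.41. The median of 0.10 equalled that of all genes kept, 0.10, and it turned to -0.10 with arrays centred, as did that of all genes. After cyclic loess it was 0.007.

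Being below 0 in both lines was a property of 4 of 8 genes and of 31.1% of all genes kept. Sqle was lower by at least 1.5-fold in both lines, which held for 2.51% of all genes. Idi1 and Insig1 were above 0 in both lines, as were 31.8% of all genes, and for Insig1 the value in GFP cells was near 0.

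**Figure D3:**
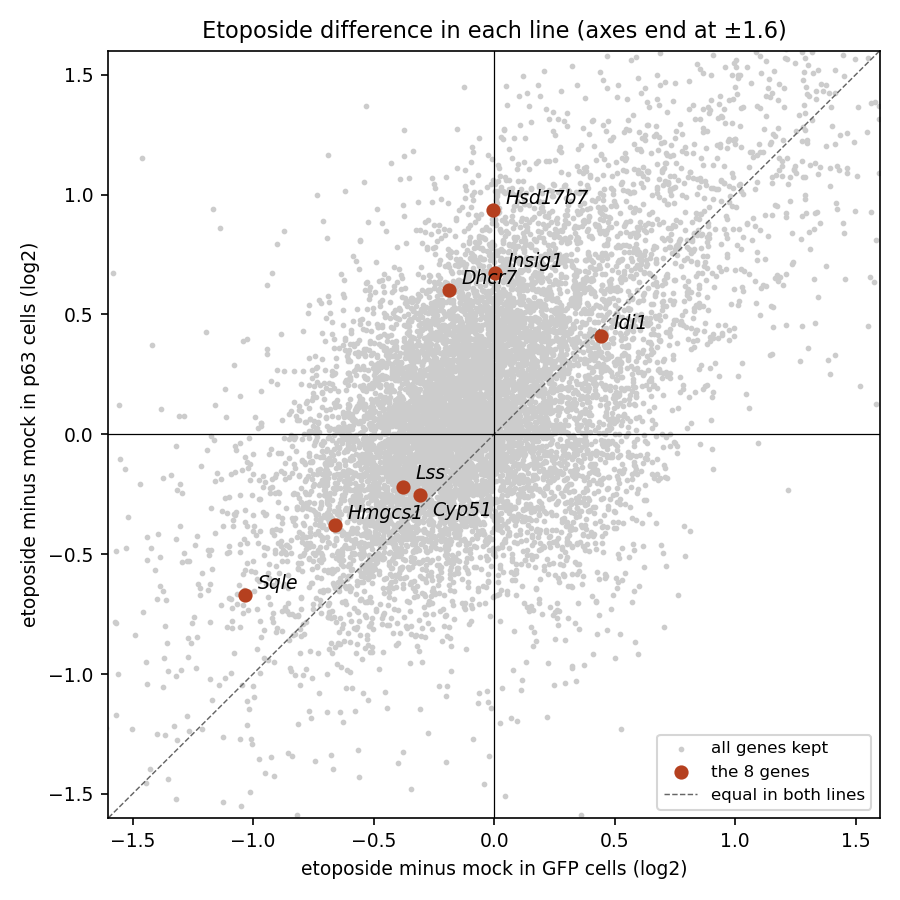
Etoposide minus mock (log2) in GFP cells (horizontal) and p63 cells (vertical) for all genes kept in grey and the 8 genes in red; the axes end at 1.6, so genes beyond are not drawn. Hmgcs1, Sqle, Lss and Cyp51 lie below 0 on both axes. Every gene of the 8 but Idi1 lies above the diagonal of equal response, as did 7409 of all 10698 genes kept. Hsd17b7, Dhcr7 and Insig1 are farthest from it.

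Subtracting the etoposide difference of the GFP line from that of the p63 line gave 0.94 for Hsd17b7, 0.79 for Dhcr7 and 0.67 for Insig1. These 3 genes passed 1.5-fold, as did 16.7% of all genes kept. With arrays centred the values were 0.64, 0.49 and 0.37, and after cyclic loess 0.71, 0.68 and 0.44. Hsd17b7 passed 1.5-fold under both scalings, Dhcr7 after cyclic loess and Insig1 under neither. Sqle stood at 0.36, Hmgcs1 at 0.28, Lss at 0.16, Cyp51 at 0.05 and Idi1 at -0.03, or 0.07 on its second probe set. Of all 10698 genes kept, 7409 were above 0. With arrays centred Hmgcs1, Lss, Cyp51 and Idi1 were below 0, and after cyclic loess Lss, Cyp51 and Idi1 were. The median was 0.32, beside 0.20 over all genes kept, whose values had an SD of 0.45. With arrays centred the medians were 0.03 and -0.10. Hsd17b7 and Insig1 are the pair whose promoters share the 14-base run with the E-box, and the sharing was seen after their values were known. Dhcr7, with a larger value than Insig1, had no TCACGTG in its promoters. The longest shared run, of 16 bases, was that of Cyp51 and Dhcr7, and 88 of 32851 windows held it. A link between shared runs and these values was not tested.

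Other enzymes of sterol synthesis leaned the same way with smaller differences. Of these, 12 were analysed here, and all 12 were kept. After etoposide 11 of 12 read higher in p63 cells, with a median of 0.29 and a range of -0.07 for Mvk to 0.58, and 0 of 12 reached 1. In mock-treated cells 7 of 12 read higher, with a median of 0.22. With the 8 genes added, the medians over all 20 genes were 0.29 under mock and 0.47 under etoposide. Of these 20 genes, 14 read higher with p63 under mock and 19 under etoposide. The 8 genes and the lists were chosen with earlier results of these data known. The part of that choice in the larger differences of the 8 genes was not tested. Nsdhl, which removes a carboxyl group from sterol intermediates, stood at 0.60 under mock and 0.58 under etoposide, close to Idi1. Fdft1, squalene synthase, stood at 0.39 and 0.56, and Fdps, which makes farnesyl diphosphate, at -0.04 and 0.57. Pmvk, phosphomevalonate kinase, was at 0.64 under mock and 0.00 under etoposide. Mvd, the decarboxylase after it, had the largest etoposide difference of the list, 0.46 in GFP and 0.91 in p63 cells, and its value in mock-treated p63 cells, 6.46, was its lowest.

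Among the regulators of SREBP 1 gene differed by 1 in a comparison. Of 13 listed, 11 were kept, and their median with p63 was -0.03 under mock and 0.19 under etoposide. Srebf2, which encodes SREBP2, read 8.76, 8.64, 8.74 and 9.09 over the arrays in the order used above. It was thus highest in etoposide-treated p63 cells, and the other arrays lay within 0.12 of one another. Srebf1 read 7.32, 7.31, 7.26 and 7.64, again highest in etoposide-treated p63 cells. Scap, the escort, was higher after etoposide by 0.61 in GFP cells and by 1.05 in p63 cells, the gene that reached 1. Insig2, the second Insig protein, stood at -0.58 and -0.26 after etoposide, whereas Insig1 stood at 0.005 and 0.67.

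Genes of cholesterol transport and of fatty acid synthesis had medians with p63 near those of all genes. For uptake and transport, with 10 of 14 kept, the medians were -0.03 and 0.15 in mock- and etoposide-treated cells. Npc2, which carries cholesterol out of the lysosome, was lower with p63 by at least 1 in mock-treated cells (-1.09) and stood at -0.44 after etoposide. Gramd1a, which moves cholesterol from the plasma membrane to the endoplasmic reticulum, was higher after etoposide in p63 cells by 1.01 and stood at 0.34 in GFP cells. Both of the values that reached 1 use the array of mock-treated p63 cells. For fatty acid synthesis under SREBP1, with 14 of 16 kept, the medians were -0.06 and 0.04. Lpin1, a phosphatidate phosphatase, read 6.31 and 6.26 in mock-treated and 8.34 and 8.40 in etoposide-treated GFP and p63 cells, so etoposide arrays were higher by 2.03 and 2.14. It was the only gene of that list to differ by 1 in any comparison.

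On the efflux list 4 of 11 genes were kept. Abca1, the pump that loads cholesterol onto apolipoproteins, read 6.15, 7.27, 6.67 and 7.58, and was higher after etoposide by 1.13 and 0.92. Both etoposide arrays lay above both mock arrays for Abca1, the reverse of the order for Sqle within each line. Genes that use isoprenoids for prenylation, dolichol or ubiquinone, 11 of 12 kept, had a median of -0.37 with p63 in mock-treated cells and 0.02 after etoposide. Pdss2 (-0.75) and Fntb (-0.61) had the largest sizes there, and both were at their lowest on the array of mock-treated p63 cells.

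**Figure D4:**
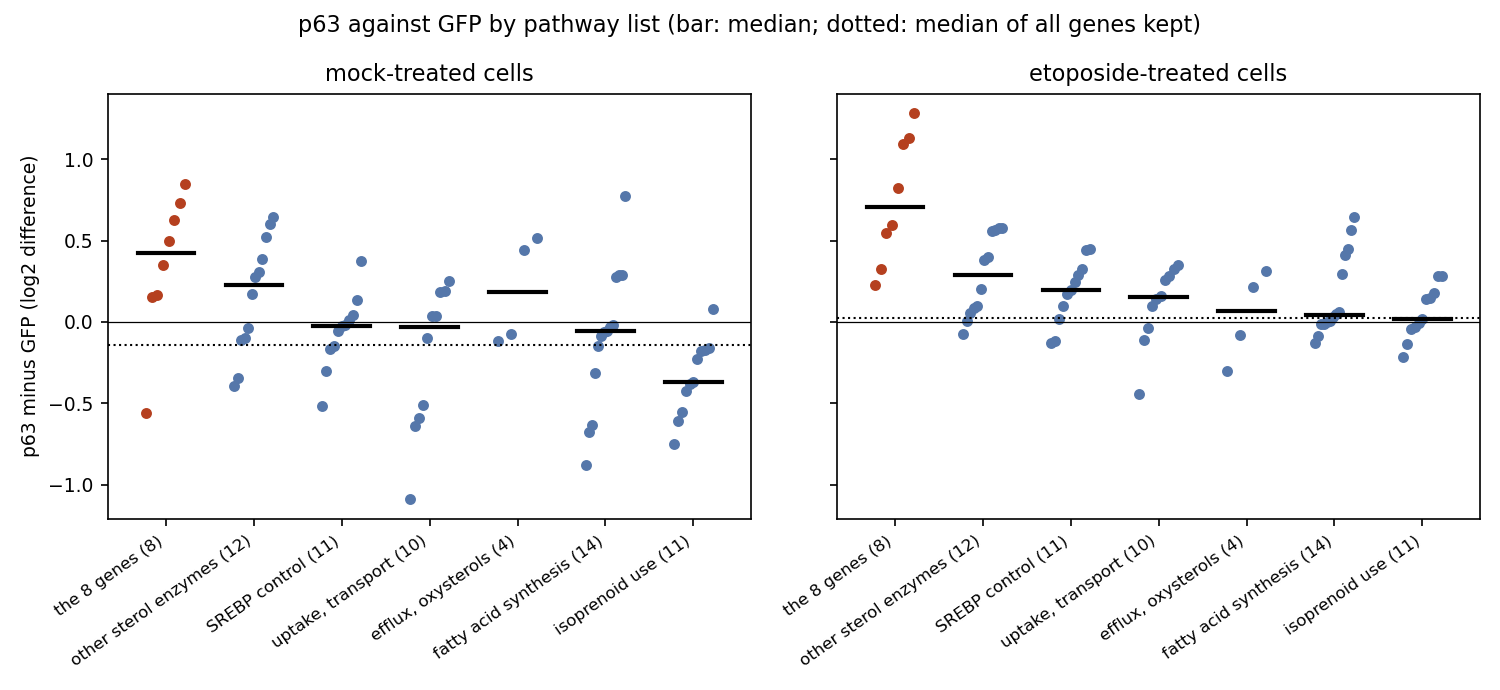
Log2 difference between p63 and GFP cells for each kept gene of the 7 groups, in mock-treated (left) and etoposide-treated cells (right), with a bar at each group's median and a dotted line at the median of all genes kept. The 8 genes have medians of 0.42 and 0.71, and the other sterol enzymes of 0.22 and 0.29. The 8 genes and the lists were chosen with earlier results of these data known.

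The genes outside the 8 whose pattern over the 4 arrays was most like their median pattern were Praf2, Prrc1, Lrrc32, Tanc2 and Gstm2. The measure was the root mean square distance between deviations from each gene's own mean over the arrays, and it was 0.03 for Praf2 and 0.04 for Gstm2. The 8 genes themselves lay from 0.13 (Cyp51) to 0.45 (Sqle) from their median pattern, so each of these 5 was nearer to it than any of the 8. The 5 were picked as the nearest of the genes kept, so their small distances follow from the choice and show no link to the 8.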

How the data were processed

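Expression was measured on Affymetrix Mouse Gene ST arrays in 4 samples, 1 array per condition, from Trizol-extracted RNA amplified with a NuGEN kit for small amounts of RNA, per the labels' protocols. The log2 values deposited are RMA signals that the authors computed with Affymetrix Expression Console (version not given), according to the submitters' processing notes. RMA subtracts background, equalises the intensity distributions and summarises probes, so a shift shared by most genes is largely removed. A range of 1.27 to 14.4 was the basis for taking the log base as 2. The number of arrays limits the precision.

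Genes were named from a platform annotation of 2016, in which 21789 probe sets had exactly 1 symbol, and the Entrez identifiers of all 8 genes gave the same symbols in RefSeq (GRCm38.p6). Of several probe sets, the one with the highest mean was used. Differences were taken in Python 3.11.15 with pandas 2.3.3 and called at 1; no test was made. Cyclic loess used limma 3.58.1, and the calling step was tested on simulated data.

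Named genes were the 8, Trp63, members of each pathway list that differed by at least 1 in a comparison (or the 2 with the largest size), and the 5 with the nearest pattern. Krt5, Pdgfra, Thy1, Krt8, Cd68, Apoa1, Pparg, Mvk, Nsdhl, Fdft1, Fdps, Srebf1, Srebf2, Insig2 and the fatty acid genes of the closing section were added for their role or after their values were seen. Krt14, Itgb4 and Dsp were named for their readings below the filter. The genes and lists were chosen with earlier results of these data known. The genes of the pathway lists without a named probe set were not analysed here. Alternatives were the median of probe sets, other filters, centred arrays, cyclic loess, dim readings raised to the filter and a 1.5-fold threshold.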

Additional observations from a re-analysis of the deposited data

How the results depend on the processing

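With no replicates, a median was taken as moved where it shifted by at least 0.1 (log2). No paired analysis was possible because the labels give no replicate numbers and each condition has 1 array. A model of line plus treatment over the 4 arrays, with 1 residual degree of freedom, was not run. Leaving out an array leaves no value for the comparisons that use it. With arrays centred, the medians of the 8 genes were 0.64 for p63 in mock-treated cells, -0.10 for etoposide in p63 cells and 0.028 for the difference of the etoposide differences, and after cyclic loess the first and last were 0.61 and 0.093. Under both of these scalings 0 genes were called after etoposide in GFP cells and 1 gene, Hmgcs1, with p63 in mock-treated cells. The filter at the 75th percentile (7.82) left 6 genes, without Lss and Dhcr7, with medians of 0.56 and 0.96 for p63 in mock- and etoposide-treated cells. The 1.5-fold threshold called 2 genes, both lower, for etoposide in GFP cells (18.8% of all genes in either direction), and 4 for etoposide in p63 cells, 3 higher and 1 lower (22%). It called 3 for p63 in mock-treated cells (22.8% in either direction) and 5 for p63 in etoposide-treated cells (6.78%), all of them higher. Of all 10698 genes kept, 721 were higher and 1720 lower in the former, and 525 higher and 200 lower in the latter. The remaining medians moved by less than 0.1. Of 64 differences of single genes under both scalings, 32 moved by at least 0.1, and 0 called values changed sign. The other alternatives cannot alter a single gene's differences, apart from the median of probe sets for Idi1. The sign of Hsd17b7 after etoposide in GFP cells, a value near 0, was positive under both scalings. No signal of the 8 genes was below the filter, so raising dim readings altered none of their values.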

Other observations

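Elovl6, Scd2 and Fads2 are fatty acid genes that SREBP factors are known to activate. Elovl6, an elongase of long-chain fatty acids, read 8.85, 7.88, 9.14 and 8.30 on the GFP mock, GFP etoposide, p63 mock and p63 etoposide arrays, the order of arrays within each line seen for Sqle. Scd2, a desaturase, was highest in mock-treated GFP cells, unlike any of the 8 genes, and stood at -0.94 after etoposide in GFP cells and at -0.33 in p63 cells. Fads2, another desaturase, read 9.74, 10.21, 10.52 and 10.86, the order of arrays seen for Idi1. Fads2 had the highest p63 difference of the fatty acid list in both treatments, 0.78 and 0.65. No condition was replicated, so these values have no error.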
